A study of Mus musculus with 4 samples.

Results

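The genes described here supply B16F10 cells with serine, glycine, asparagine and imported amino acids. They were chosen by name and comprised Phgdh, Psat1 and Psph of serine synthesis, Shmt2 and Mthfd2 of mitochondrial folate metabolism, the asparagine synthetase gene Asns, and the transporter genes Slc7a5, Slc3a2, Slc7a1 and Slc1a5. All 10 were found among the 24527 gene symbols of the read count table. All 10 also averaged 1 CPM or more over the libraries, as did 12728 genes in total. CPM stands for the reads of a gene per 1000000 reads of its library, here after TMM scaling (trimmed mean of M-values), which sets libraries on a common scale by their bulk of genes.

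RNA was sequenced from 4 conditions, with 1 library each. B16F10 is a melanoma line of C57BL/6 mice, and the cells carried green fluorescent protein so that they could be sorted away from other cells. The 2D monoculture held B16F10 cells alone on plastic, the 2D co-culture held them with NIH/3T3 cells, a mouse embryonic fibroblast line, and the spheroid held both lines in a hanging drop. The tumor library came from B16F10 cells injected under the skin of 1-year-old female C57BL/6 mice. The labels give the genotype WT for every sample and name no drug or other agent. In the study's methods, B16F10 cells were kept in RPMI medium. NIH/3T3 cells and the spheroid drops were in Dulbecco's modified Eagle medium. The medium of the 2D co-culture is not stated. In spheroid to 2D monoculture, the medium cannot be told apart from the fibroblasts and the hanging drop. The study's methods describe sorting of living fluorescent cells, whereas the label of the tumor sample describes snap-frozen tissue, and these sources cannot be reconciled here. The culture time of the spheroids used for RNA is not given in the sources used here, nor is whether animals were pooled.

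Serine is made from a glycolytic intermediate by the enzymes PHGDH, PSAT1 and PSPH in turn. SHMT2 then splits serine in mitochondria into glycine and a carbon unit carried by folate, and MTHFD2 oxidizes that unit, which later serves purine and thymidylate synthesis. ASNS makes asparagine from aspartate and glutamine. SLC7A5 pairs with SLC3A2 to exchange large neutral amino acids such as leucine, SLC7A1 imports arginine and lysine, and SLC1A5 imports glutamine and other small neutral amino acids. The transcription factor ATF4, which is translated when amino acids are short or proteins misfold, is known to activate many of these genes, and proliferating tumor cells often express them highly.

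The libraries held between 118896900 and 150028663 reads, and each member had between 6176 and 204805 reads in every library. Exact 95% intervals of a level were therefore narrow, between 0.433% and 2.5% of the level to either side. These intervals cover counting error only. With 1 library per condition, no difference between conditions could be set against the spread between cultures or animals, and no test was made.

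The markers of the labelled cell type were present in every library. The summed level of 8 melanocyte genes was 16136 CPM for the 2D monoculture, 14421 for the 2D co-culture, 10619 for the spheroid and 18979 for the tumor. Single genes did not all follow this sum. In the tumor, Tyrp1 was the highest of the 8 at 8948 CPM, against 6168 CPM in the 2D monoculture. Sox10, at 237 CPM against 834 CPM, was the only 1 more than 2-fold lower there, and 0 were more than 2-fold higher. Of the 12728 genes that averaged 1 CPM or more, 18.2% were more than 2-fold lower and 14.8% higher. In the spheroid, 4 of the 8 were more than 2-fold lower than in the 2D monoculture and 0 were more than 2-fold higher. Of the same 12728 genes, 17.9% were lower and 11.2% higher. Mitf, for example, measured 70.3 CPM against 416 CPM. Markers of other cells were far higher in the tumor. There, 9 fibroblast genes summed to 3194 CPM against 19.7 CPM in the 2D monoculture, 12 myeloid genes to 2019 CPM against 30.5 CPM, 5 skeletal muscle genes to 4356 CPM against 1.28 CPM, and 3 adipocyte genes to 722 CPM against 0.639 CPM. The 9 fibroblast genes also summed to 683 CPM in the 2D co-culture, but only to 37.4 CPM in the spheroid. The part of such RNA in the members' levels was not tested.

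The members together took the largest share of the RNA in the spheroid. Their summed level was 2440 CPM for the 2D monoculture, 4492 for the 2D co-culture, 5521 for the spheroid and 1174 for the tumor. The 2D co-culture had the highest level of 6 members and the spheroid that of the other 4. The tumor had the lowest level of 9 members, and the spheroid had the lowest level of Psat1. For 9 members the 2D monoculture was next above the tumor. No counting intervals of neighboring levels overlapped for any member. The 2D co-culture was, however, only 1.02-fold above the spheroid for Phgdh and Shmt2 and 1.04-fold for Psph. The spread between cultures is not covered by these intervals. In bulk RNA, fewer cells of a type and less RNA per cell cannot be told apart.

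**Figure D1:**
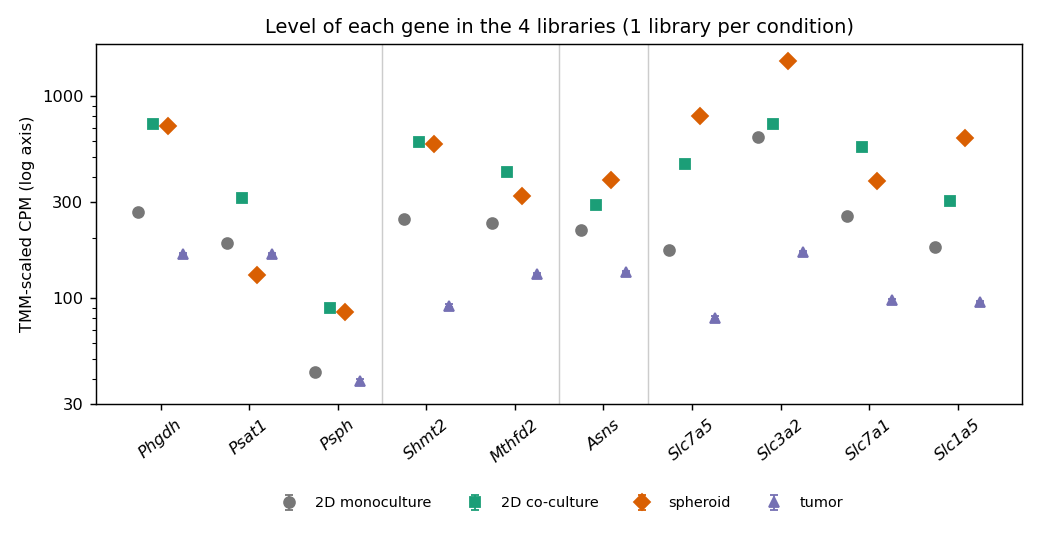
Level of each of the 10 genes in the 4 libraries, in CPM on a log axis, with exact 95% counting intervals. The tumor was lowest for every gene except Psat1, for which the spheroid was lowest, and Slc3a2 in the spheroid was the highest point at 1504 CPM.

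Among the serine synthesis genes, Phgdh and Psph were higher in both cultures with fibroblasts, whereas Psat1 was higher only in the 2D co-culture. Phgdh, the gene of the first enzyme, measured 269 CPM for the 2D monoculture, 727 for the 2D co-culture, 711 for the spheroid and 167 for the tumor. Relative to the 2D monoculture, it was 2.70-fold higher in the 2D co-culture and 2.64-fold higher in the spheroid, a log2 ratio of 1.40 for the latter (95% counting interval 1.39 to 1.42). Phgdh lies at chr3:98313170-98339990 on the minus strand (GRCm38). A processed pseudogene, Phgdh-ps1, could take or lend some of its reads.

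Psat1 encodes the aminotransferase of the following step and lies at chr19:15904678-15947337 on the minus strand. It measured 188 CPM for the 2D monoculture, 314 for the 2D co-culture, 130 for the spheroid and 166 for the tumor. It was thus the only member below its 2D monoculture level in the spheroid, with a log2 ratio of -0.53 (counting interval -0.56 to -0.50), and the log2 ratio of spheroid to 2D co-culture was -1.27. The next enzyme's gene did not share this order. Psph, the phosphatase of the last step, measured 43.4 CPM for the 2D monoculture, 89.3 for the 2D co-culture, 86.0 for the spheroid and 39.0 for the tumor. Its log2 ratio to the 2D monoculture was 0.99 in the spheroid, just inside 2-fold, and 1.04 in the 2D co-culture, just outside. Psph lies at chr5:129765558-129787449 on the minus strand, and 26.1% of its exonic bases are shared with Cct6a on the opposite strand. No source states that reads were counted by strand, so reads of both genes cannot be told apart there.

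The parting of consecutive enzymes was also seen within libraries, where no scaling between libraries enters. There were 1.43 reads of Phgdh for each read of Psat1 in the 2D monoculture, 2.31 in the 2D co-culture, 5.46 in the spheroid (95% interval 5.38 to 5.55) and 1.0 in the tumor (95% interval 0.986 to 1.02). Reads of Phgdh per read of Psph moved much less between cultures, being 6.20 in the 2D monoculture, 8.15 in the 2D co-culture, 8.27 in the spheroid and 4.28 in the tumor. The spheroid thus had the highest ratio of Phgdh to Psat1, and a ratio of Phgdh to Psph close to that of the 2D co-culture. Phgdh has a GC percent of 57.2, Psat1 one of 48.4 and Psph one of 49.6, and GC content moved with the differences between libraries. After the correction for GC content and length described with the comparisons, the log2 change of the Phgdh to Psat1 ratio in the spheroid went from 1.93 to 1.29 against the 2D monoculture and from 2.44 to 1.21 against the tumor. That of Phgdh to Psph between the spheroid and the 2D co-culture went from 0.02 to -0.51.

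The promoter sequences of Phgdh and Psat1 are given because the levels of these genes parted in the spheroid, and that of Asns because it alone held the motif associated with ATF4. Each line gives the 250 bases before the RefSeq start on the minus strand (GRCm38.p6), at chr3:98339970-98340219 for Phgdh, at chr19:15925060-15925309 for the first of the Psat1 starts and at chr6:7693210-7693459 for Asns. Capitals mark matches to the motifs described next.
Phgdh: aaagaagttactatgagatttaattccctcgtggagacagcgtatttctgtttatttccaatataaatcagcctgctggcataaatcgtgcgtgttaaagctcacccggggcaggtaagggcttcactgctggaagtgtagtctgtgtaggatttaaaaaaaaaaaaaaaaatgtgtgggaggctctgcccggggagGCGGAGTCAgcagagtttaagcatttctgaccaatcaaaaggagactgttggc
Psat1: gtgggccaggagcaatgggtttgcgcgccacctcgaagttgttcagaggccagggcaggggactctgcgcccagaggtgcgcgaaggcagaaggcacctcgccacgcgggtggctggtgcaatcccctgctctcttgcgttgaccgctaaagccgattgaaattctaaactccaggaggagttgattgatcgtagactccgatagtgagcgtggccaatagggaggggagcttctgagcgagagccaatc
Asns: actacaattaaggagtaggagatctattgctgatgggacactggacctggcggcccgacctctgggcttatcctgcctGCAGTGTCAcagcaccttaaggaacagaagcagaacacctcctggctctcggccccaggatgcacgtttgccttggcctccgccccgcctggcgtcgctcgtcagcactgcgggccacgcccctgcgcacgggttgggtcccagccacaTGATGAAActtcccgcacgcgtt

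RefSeq windows, from 250 bases before a start to 50 after it, were found for 8 of the 10 members, and none was held for Slc7a5 and Slc1a5. Both strands were searched for TGATGNAA, a C/EBP-ATF response element, for TGACNNNGC, the core of an antioxidant response element, and for CACGTG, the E-box. TGATGNAA occurred in 1 of the 8 members, Asns, as TGATGAAA 23 bases before the start, and in 4.51% of all 27025 genes with a window. TGACNNNGC occurred in 4 of the 8, Phgdh, Psph, Asns and Slc7a1, and in 14% of all genes. CACGTG occurred in 0 of the 8 and in 8.09% of all genes. No window of Psat1, Shmt2, Mthfd2 or Slc3a2 held any of these letters, which describes the windows and not the binding of a factor. The bases after the start in the Slc3a2 window were not found in its GENCODE transcripts. Whether that window is the promoter in use is therefore uncertain.

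Shmt2 and Mthfd2, the mitochondrial folate genes among the members, were higher in both cultures with fibroblasts and lowest in the tumor. Shmt2, the serine hydroxymethyltransferase of mitochondria, measured 247 CPM for the 2D monoculture, 592 for the 2D co-culture, 581 for the spheroid and 92.0 for the tumor. Its levels in the cultures with fibroblasts were close together, 2.40-fold and 2.36-fold above the 2D monoculture, and that of the tumor was 2.68-fold below it. Mthfd2, the methylenetetrahydrofolate dehydrogenase of mitochondria, measured 237 CPM for the 2D monoculture, 421 for the 2D co-culture, 320 for the spheroid and 132 for the tumor, and did not pass 2-fold in any comparison with the 2D monoculture. Shmt2 lies at chr10:127517123-127522444 and Mthfd2 at chr6:83305691-83325908, both on the minus strand. Shmt2 shares 1.4% of its exonic bases with Ndufa4l2 on the opposite strand.

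The cytosolic counterparts of these genes did not share their order. Shmt1, the cytosolic hydroxymethyltransferase, measured 24.7 CPM for the 2D monoculture, 47.4 for the 2D co-culture, 8.72 for the spheroid and 20.2 for the tumor. Reads of Shmt2 per read of Shmt1 were 9.98 in the 2D monoculture, 12.5 in the 2D co-culture, 66.7 in the spheroid (95% interval 63.0 to 70.7) and 4.56 in the tumor. Reads of Mthfd2 per read of Mthfd1, the cytosolic enzyme with several folate activities, were 2.28 in the 2D monoculture, 4.07 in the 2D co-culture, 13.5 in the spheroid (95% interval 13 to 14) and 2.13 in the tumor. In both pairs the spheroid had the highest ratio of mitochondrial to cytosolic reads and the tumor the lowest. After the GC and length correction, the log2 change from the 2D monoculture to the spheroid was 2.00 for the first pair (2.64 without it) and 2.74 for the second (2.52 without it). Other mitochondrial folate genes did not move together. Mthfd1l measured 271 CPM for the 2D monoculture and 78.3 for the spheroid, Aldh1l2 324 and 121, and Mtfmt 29.2 and 36.9. Both pairs thus describe their own genes and not mitochondrial and cytosolic folate genes as a whole.

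**Figure D2:**
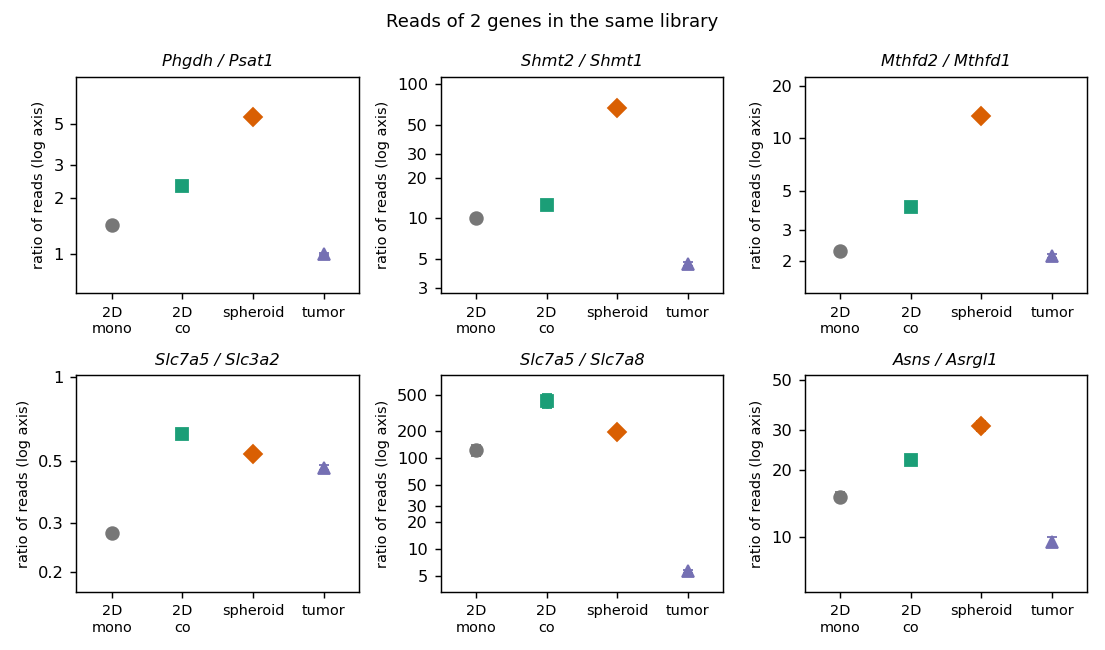
Ratio of the reads of 2 genes within each library, on log axes, for 6 pairs, with no correction for GC content and length. The spheroid had the highest ratio for Phgdh to Psat1 (5.46), Shmt2 to Shmt1 (66.7), Mthfd2 to Mthfd1 (13.5) and Asns to Asrgl1 (31.1), and the 2D co-culture for Slc7a5 to Slc3a2 and Slc7a5 to Slc7a8.

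Asns, the asparagine synthetase gene at chr6:7675169-7693254 on the minus strand, was highest in the spheroid. Its level was 218 CPM for the 2D monoculture, 292 for the 2D co-culture, 384 for the spheroid and 135 for the tumor. The log2 ratio to the 2D monoculture was 0.82 in the spheroid (counting interval 0.80 to 0.84) and 0.42 in the 2D co-culture, neither past 2-fold. For each read of Asrgl1, which encodes an asparaginase, there were 15.1 reads of Asns in the 2D monoculture, 22 in the 2D co-culture, 31.1 in the spheroid and 9.58 in the tumor. The order of the libraries was thus the same by this ratio as by the level. Aspg, the other asparaginase gene on the list, measured 4.30 CPM for the 2D monoculture, 5.5 for the 2D co-culture, 23.6 for the spheroid and 4.95 for the tumor. Reads of Asns per read of Aspg were 50.7 in the 2D monoculture, 53.0 in the 2D co-culture, 16.2 in the spheroid and 27.3 in the tumor, so by this ratio the spheroid was lowest. After the correction for GC content and length described with the comparisons, the log2 change of this ratio from tumor to spheroid turned from -0.55 to 1.22.

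Without a correction for GC content, Slc7a5 and Slc3a2 had the widest ranges of the members, 9.93-fold and 8.87-fold between their highest and lowest library. After the GC and length correction, their log2 ratios of spheroid to tumor were 1.76 and 2.29, and that of Slc7a1 was 2.39. Slc7a5, the light chain of the leucine exchanger, measured 173 CPM for the 2D monoculture, 460 for the 2D co-culture, 796 for the spheroid and 80.1 for the tumor. The spheroid was 4.59-fold above the 2D monoculture (log2 ratio 2.20, counting interval 2.18 to 2.22) and 9.93-fold above the tumor. Its partner Slc3a2, the heavy chain that carries the exchanger to the cell surface, measured 631 CPM for the 2D monoculture, 733 for the 2D co-culture, 1504 for the spheroid and 169 for the tumor. The chains differed in the 2D co-culture, where Slc7a5 was 2.65-fold and Slc3a2 1.16-fold above the 2D monoculture. Reads of Slc7a5 per read of Slc3a2 were 0.275 in the 2D monoculture, 0.628 in the 2D co-culture, 0.529 in the spheroid and 0.473 in the tumor, so the 2D monoculture had the lowest ratio. With the GC and length correction, the log2 change of this ratio from tumor to 2D co-culture turned from 0.40 to -0.23. That from tumor to spheroid turned from 0.15 to -0.54, so the tumor was then highest and the 2D monoculture still lowest. Slc7a5 lies at chr8:121881150-121907694 and Slc3a2 at chr19:8706882-8723369, both on the minus strand.

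Slc7a5 was also set against Slc7a8, which encodes the other light chain of this exchange system. Slc7a8 measured 1.42 CPM for the 2D monoculture, 1.08 for the 2D co-culture, 4.08 for the spheroid and 14.3 for the tumor. Reads of Slc7a5 per read of Slc7a8 were 122 in the 2D monoculture, 425 in the 2D co-culture, 195 in the spheroid and 5.62 in the tumor. The tumor was lowest in this ratio and was the library with the high markers of other cell types, whose part in it was not tested.

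The other transporters differed in which culture with fibroblasts was highest. Slc1a5, the glutamine importer at chr7:16781340-16798274 on the plus strand, measured 179 CPM for the 2D monoculture, 303 for the 2D co-culture, 626 for the spheroid and 96.0 for the tumor. The spheroid was 3.5-fold above the 2D monoculture (log2 ratio 1.81, counting interval 1.79 to 1.83). Slc7a1, the importer of cationic amino acids at chr5:148327410-148399904 on the minus strand, measured 256 CPM for the 2D monoculture, 562 for the 2D co-culture, 383 for the spheroid and 97.9 for the tumor. Its highest level was thus in the 2D co-culture, 2.19-fold above the 2D monoculture, against 1.5-fold in the spheroid. After the GC and length correction these cultures were near equal. The log2 ratio of Slc7a1 in spheroid to 2D co-culture went from -0.55 to -0.05.

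Compared per length, in reads per kilobase of transcript, scaled to the same total in each library, Slc3a2 and Phgdh were the largest of the members' summed level in the spheroid, with 24.2% and 18.3%. Slc7a5 made up 5.41% of that sum in the 2D monoculture, 7.71% in the 2D co-culture, 11% in the spheroid and 4.95% in the tumor. Psat1 made up 7.03%, 6.31%, 2.16% and 12.3% in the same order of libraries. Between the spheroid and the tumor, the shares of Slc7a5 and Psat1 in this per-length sum went in opposite directions.

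The first comparison asked how B16F10 cells in the spheroid differed from those grown alone on plastic. Of the 10 members, 5 were more than 2-fold higher in the spheroid, Phgdh, Shmt2, Slc7a5, Slc3a2 and Slc1a5, and 0 were more than 2-fold lower. Among all 12728 genes, 11.2% were more than 2-fold higher and 17.9% more than 2-fold lower. The median log2 ratio was 1.10 over the members and 0.05 over all genes. Slc7a5 ranked at place 115 and Slc1a5 at place 255 among all genes ordered by this ratio. Counts of genes and medians used 1 CPM added to every level, and ratios of single members used none.

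GC content moved with this comparison. Across 12667 genes, which are not independent replicates and share both libraries, the Spearman correlation of the log2 ratio of spheroid to 2D monoculture with the GC percent of the transcript was 0.463. The 5 members past 2-fold had a GC percent of 53.4 or more, and the other 5 had 51.3 or less. After the median ratio of genes of like GC content and length was removed, 4 members were past 2-fold, and the members' median was 0.82. With the same correction, 9.1% of all genes were more than 2-fold higher and 11.7% more than 2-fold lower. Slc7a5 then had a log2 ratio of 1.56, Slc7a1 1.49, Slc1a5 1.25 and Slc3a2 1.04, whereas Phgdh had 0.76 and Shmt2 0.59. Psat1 was still below 0, at -0.54. Whether GC content itself set these ratios was not tested.

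The comparison of the 2D co-culture with the 2D monoculture asked how cells differed when fibroblasts shared the dish, without a spheroid. Again 5 members were more than 2-fold higher, here Phgdh, Psph, Shmt2, Slc7a5 and Slc7a1, and 0 were more than 2-fold lower. Among all genes, 3.79% were more than 2-fold higher and 9.51% more than 2-fold lower. All 10 members were above their 2D monoculture level, between the log2 ratio of 0.22 of Slc3a2 and that of 1.44 of Phgdh, with a median of 0.93 against 0.01 over all genes. The GC correlation across genes was 0.201 here. After the correction Slc7a1 had a log2 ratio of 1.69, Slc7a5 1.32, Phgdh 1.29 and Shmt2 1.11, while Psph was inside 2-fold at 0.87. Of all genes, 4.28% were then more than 2-fold higher and 6.94% more than 2-fold lower. Of the 9 fibroblast markers, 5 were more than 2-fold higher in this library than in the 2D monoculture, and their part in the members' levels was not tested. Both this comparison and the spheroid's used the same 2D monoculture library.

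**Figure D3:**
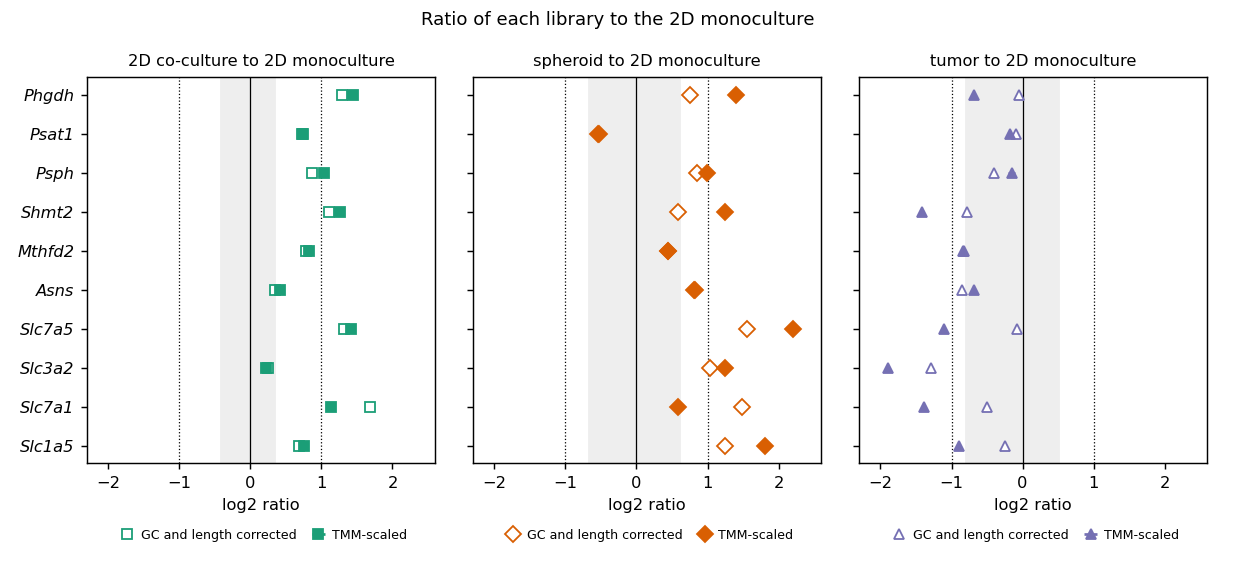
Log2 ratio of each gene to the 2D monoculture in the 2D co-culture, the spheroid and the tumor, with TMM scaling (filled) and after correction for GC content and length (open). The grey band is the range between the quartiles of all 12728 genes and dotted lines mark 2-fold; Psat1 was the only gene below 0 in the spheroid, and all 10 were below 0 in the tumor.

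The spheroid and the 2D co-culture were both grown with NIH/3T3 cells, and 3 of the 10 members passed 2-fold between them. Slc3a2 (log2 ratio 1.04) and Slc1a5 (1.05) were more than 2-fold higher in the spheroid, and Psat1 (-1.27) was more than 2-fold lower. Among all genes, 9.54% were more than 2-fold higher and 8.46% more than 2-fold lower. Phgdh (-0.03), Psph (-0.05) and Shmt2 (-0.03) were near equal levels, and the members' median of -0.03 was close to the -0.01 of all genes. The GC correlation was 0.387. After the correction Slc3a2 was at 0.77, Slc1a5 at 0.56, Psat1 at -1.25, Phgdh at -0.53 and Shmt2 at -0.52. Slc7a1 went from -0.55 to -0.05. Psat1 was then the only member past 2-fold, where 7.17% of all genes were more than 2-fold higher and 6.8% more than 2-fold lower. The fibroblast markers also differed, with 7 of 9 more than 2-fold lower in the spheroid and a sum of 37.4 CPM against 683 CPM, and their part in the members' levels was not tested.

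In the tumor, all 10 members were below their level in the 2D monoculture. Slc3a2 (log2 ratio -1.90), Shmt2 (-1.42), Slc7a1 (-1.39) and Slc7a5 (-1.11) were more than 2-fold lower, and 0 members were more than 2-fold higher. Among all genes, 18.2% were more than 2-fold lower and 14.8% more than 2-fold higher. Psat1 (-0.18) and Psph (-0.15) were nearest to equal levels, and under total count or upper quartile scaling both were above 0. The median was -0.86 over the members and -0.14 over all genes. The GC correlation was -0.381. After the GC and length correction, the members' median was -0.44 and Slc3a2 at -1.29 was the only member past 2-fold. Of all genes, 6.23% were then more than 2-fold lower and 16% more than 2-fold higher. Markers of other cells moved with these lower levels: 5 of 5 skeletal muscle, 12 of 12 myeloid, 8 of 9 fibroblast and 3 of 3 adipocyte genes were more than 2-fold higher in the tumor, and their part was not tested.

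Against the tumor, 9 members were more than 2-fold higher in the spheroid, and 9 were so in the co-culture, with Psat1 the exception in each, and 0 members were more than 2-fold lower. Among all genes, 26.8% were more than 2-fold higher and 27.6% lower for the spheroid, and 18.8% were higher and 20.9% lower for the 2D co-culture. Slc7a5 was 9.93-fold, Slc3a2 8.87-fold, Slc1a5 6.52-fold and Shmt2 6.32-fold above the tumor in the spheroid. The GC and length correction moved these ratios by over 1.5 times. Their log2 values were then 1.76 for Slc7a5, 2.29 for Slc3a2, 1.56 for Slc1a5 and 1.37 for Shmt2. That of Phgdh went from 2.09 to 0.80. The correction raised those of Slc7a1 from 1.97 to 2.39, Mthfd2 from 1.28 to 1.52, Asns from 1.51 to 1.68 and Psph from 1.14 to 1.18. Without the correction, Slc7a5 ranked at place 112 and Slc3a2 at place 140 in spheroid to tumor, and Shmt2, Slc7a1 and Slc7a5 at places 42, 59 and 60 in 2D co-culture to tumor. The members' median log2 ratio was 2.02 for the spheroid, where all genes had 0.08, and 1.89 for the 2D co-culture, where all genes had 0.11. After the GC and length correction these medians were 1.53 and 1.34, with 8 members past 2-fold in each, the GC correlations being 0.524 and 0.458. Both comparisons share the tumor library.

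Other genes of the same pathways were taken from lists. Of 11 folate enzymes outside the members, 7 were more than 2-fold lower in the spheroid than in the 2D monoculture and 0 were more than 2-fold higher, where 17.9% and 11.2% of all genes were, with a median log2 ratio of -1.24. These included Mthfd1 (104 CPM for the 2D monoculture, 23.7 for the spheroid), Aldh1l2 (324 CPM and 121 CPM), a mitochondrial formyltetrahydrofolate dehydrogenase, and Tyms (39.3 CPM and 16 CPM), the thymidylate synthase. After the GC and length correction, 4 were more than 2-fold lower, where 11.7% of all genes were, with a median of -0.81. In the 2D co-culture, 1 of the 11 was more than 2-fold lower, where 9.51% of all genes were, and the median was 0.01. In the tumor 2 were more than 2-fold higher and 3 lower, where 14.8% and 18.2% of all genes were, with a median of -0.74. The correction left 1 higher and 1 lower in the tumor, where 16% and 6.23% of all genes were, with a median of -0.13. Of 6 genes listed for glycine cleavage and mitochondrial import, 5 averaged 1 CPM or more. Among these, 1 was more than 2-fold lower in the spheroid, where 17.9% of all genes were. It was the dehydrogenase gene Dld, with 260.3 CPM for the 2D monoculture and 122 for the spheroid. The count was 0 under another scaling and after the GC and length correction.

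The genes of other amino acid synthesis and breakdown were mixed. Of 21 genes listed, 4 of which break down serine or asparagine, 18 averaged 1 CPM or more. Of these, 5 were more than 2-fold higher in the spheroid than in the 2D monoculture and 0 were more than 2-fold lower, where 11.2% and 17.9% of all genes were, with a median log2 ratio of 0.50. The asparaginase gene Aspg was among the 5. Pycr1, of the last step of proline synthesis, measured 11.4 CPM for the 2D monoculture, 16 for the 2D co-culture, 74.8 for the spheroid and 6.97 for the tumor. Cth, which makes cysteine from cystathionine, measured 18.7 CPM, 41.7 CPM, 76.7 CPM and 13.7 CPM in the same order of libraries. Oat, which links ornithine with proline, went the other way, with 246 CPM for the 2D monoculture, 193 for the 2D co-culture, 126 for the spheroid and 536 for the tumor. The spheroid and the tumor thus had the opposite order for Oat and for Pycr1.

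Of 30 other amino acid transporter genes listed, 22 averaged 1 CPM or more. Among these, 6 were more than 2-fold higher in the spheroid than in the 2D monoculture and 0 were more than 2-fold lower, where 11.2% and 17.9% of all genes were, with a median log2 ratio of 0.19. Slc1a4, a carrier of serine and alanine, measured 47.9 CPM for the 2D monoculture, 82.1 for the 2D co-culture, 188 for the spheroid and 16.6 for the tumor. Slc6a9, a glycine transporter, was at 39.3 CPM, 39.8 CPM, 136 CPM and 7.10 CPM in that order. Both had the order of Slc1a5, with the spheroid highest and the tumor lowest. Slc7a11, the cystine importer that also pairs with Slc3a2, was instead highest in the 2D monoculture, with 419.7 CPM there, 115 for the 2D co-culture, 234 for the spheroid and 12.9 for the tumor. Slc38a4 had 0 reads in the 2D monoculture, which allows up to 0.0211 CPM, and 15.4 CPM in the tumor. In tumor to 2D monoculture, 6 of the 22 were more than 2-fold higher and 7 lower, where 14.8% and 18.2% of all genes were, with a median of -0.19. After the GC and length correction 5 were higher and 2 lower, where 16% and 6.23% of all genes were, with a median of 0.15.

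Of 12 ATF4 partners and targets outside the members, 7 were more than 2-fold higher in the spheroid than in the 2D monoculture and 0 were more than 2-fold lower, where 11.2% and 17.9% of all genes were, with a median log2 ratio of 1.40. In the 2D co-culture, 0 were more than 2-fold higher and 1 was more than 2-fold lower, where 3.79% and 9.51% of all genes were, and the median was -0.22, whereas the members' median there was 0.93. Atf4 was listed with kinase genes of the same pathway, 5 genes in all. In the spheroid, Atf4 was more than 2-fold above the 2D monoculture, and Eif2ak4 and Eif2ak2 were more than 2-fold below it. The list's median log2 ratio was -0.76. Eif2ak4 and Eif2ak2 were also more than 2-fold lower in the 2D co-culture. After the GC and length correction, 1 gene was more than 2-fold lower in each. Atf4 itself measured 671 CPM for the 2D monoculture, 1229 for the 2D co-culture, 2713 for the spheroid and 407 for the tumor. Trib3, a pseudokinase that restrains ATF4, measured 191 CPM, 163 CPM, 1279 CPM and 34.5 CPM in that order. Ddit3, a transcription factor of the same stress response, measured 168 CPM, 141 CPM, 499 CPM and 58.9 CPM. Chac1, which breaks down glutathione, measured 82.0 CPM, 74.5 CPM, 335 CPM and 22.6 CPM, and Sesn2, a leucine sensor, 103 CPM, 77.4 CPM, 186 CPM and 14.6 CPM. The last 4 genes were below their 2D monoculture level in the 2D co-culture, where Phgdh, Shmt2, Slc7a5 and Slc7a1 were more than 2-fold above it. In the tumor, 7 of the 12 were more than 2-fold below the 2D monoculture and 1 was above, where 18.2% and 14.8% of all genes were, with a median of -1.66. The differences of these lists from the members were not tested.

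**Figure D4:**
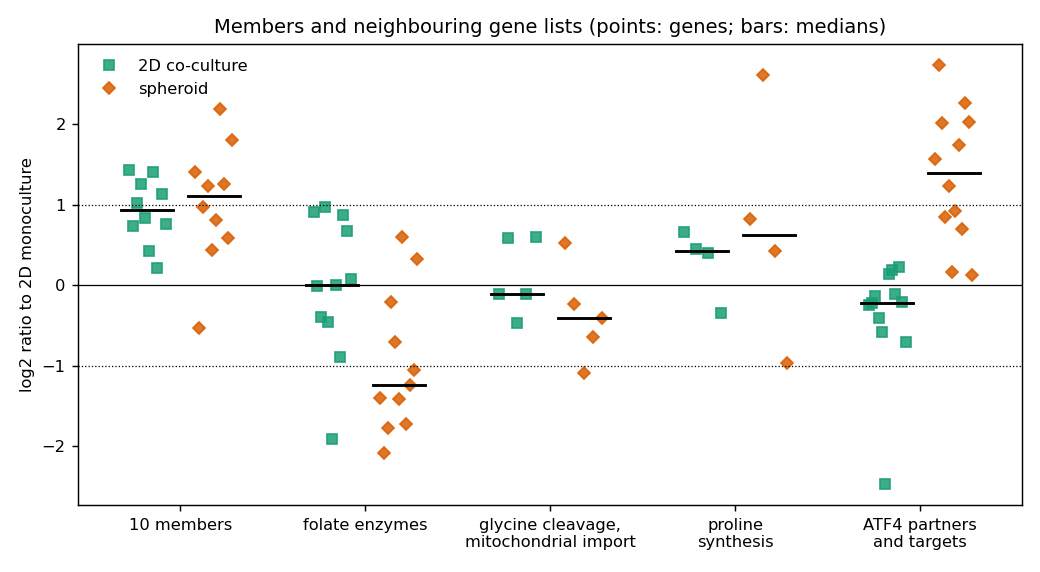
Log2 ratio to the 2D monoculture of the 10 members and of 4 lists of related genes, in the 2D co-culture (green squares) and the spheroid (orange diamonds), with 1 CPM added and bars at the medians. The members' medians were 0.93 and 1.10, and those of the ATF4 partners and targets -0.22 and 1.40.

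The genes whose pattern over the 4 libraries was most like the members' median were found by the Euclidean distance between centered log2 levels, among 9578 genes that averaged 10 CPM or more. The nearest were Lrfn4 (distance 0.08), Smad7 (0.09), Sdf2l1 (0.11), Klf16 (0.14), Rbm15b (0.15), Gsr (0.15), Dusp4 (0.16) and Mfsd10 (0.18). Among the members, Phgdh lay nearest to their own median, at 0.39, and Psat1 farthest, at 1.71. The gene nearest to a single member was Pck2 for Slc7a5 (0.15), Gaa for Slc3a2 (0.14), Pim3 for Slc1a5 (0.14), Nr2f2 for Slc7a1 (0.21), Arfgap1 for Asns (0.03), Aurkb for Mthfd2 (0.05), Pkmyt1 for Shmt2 (0.13), Itprip for Psph (0.10), Mxd3 for Psat1 (0.11) and P3h2 for Phgdh (0.22). With 4 libraries, many genes have like patterns, and the distances are descriptions only.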

How the data were processed

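RNA was sequenced from 4 libraries, 1 per condition, with the NEBNext Ultra II RNA kit after poly(A) enrichment, as paired-end reads. The table deposited by the authors holds raw whole-number counts of reads for each gene symbol. Per the submitters' processing notes, Trimmomatic, STAR and featureCounts were used with the mm10 build (GRCm38), with no versions given. The 4 columns were matched to the conditions by their labels. Totals lay between 118896900 and 150028663 reads, so that 0 reads allows up to 3 reads, or 0.0185 to 0.0262 CPM.

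The counts were scaled to CPM with TMM factors from edgeR 4.0.16 (R 4.3.3). Figures and ratios were made with scipy 1.17.1, pandas 2.3.3, numpy 2.4.6 and matplotlib 3.10.9 under Python 3.11.15. Intervals of levels are exact Clopper-Pearson intervals at 95%, and a log2 ratio has the exact binomial interval of how its reads divided between both libraries. The study's methods give n = 3 for the RNA, but 1 library per condition was analysed here, so no differential test was run. A gene counted as past 2-fold with 1 CPM added, among genes that averaged 1 CPM or more. The correction for GC content and length removed the median log2 ratio of 10 classes of GC by 10 of transcript length, from GENCODE M21. Promoters came from RefSeq (GRCm38.p6).

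Alternatives were DESeq2 1.42.0 size factors, total count, upper quartile and pairwise TMM scaling, other pseudocounts, filters and folds, and the GC correction. The text names the members, the ends of each list, Atf4 and its best-known targets, the genes of each ratio and the nearest genes, and a few further list genes, Slc38a4 and Dld among them, serve as examples. Members and lists were chosen with earlier results of these data known. The scripts were tested on simulated data.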

Additional observations from a re-analysis of the deposited data

How the results depend on the processing

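No paired analysis was possible because no condition has more than 1 library. As a fold, no median of the members moved by over 1.5 times or reversed; on the log2 scale that of tumor to 2D monoculture went from -0.86 to -0.44 with the GC correction, and that of spheroid to 2D co-culture from -0.03 to -0.11 under total counts. In all, 61 of 66 counts of members past 2-fold stayed within 1.5 times. The exceptions were these. With a fold of 1.5, 8 members passed in 2D co-culture to 2D monoculture (5 at 2-fold) and 8 in tumor to 2D monoculture (4 at 2-fold). With the GC and length correction, 1 passed in tumor to 2D monoculture and 1 in spheroid to 2D co-culture (3 without it), and with total count scaling 1 passed in spheroid to 2D co-culture. Only Psat1 and Psph changed sign, in tumor to 2D monoculture under total count and upper quartile scaling. Under the other scalings and the GC correction, 214 log2 ratios of single members left their counting interval and 86 stayed inside it. That of Phgdh in spheroid to 2D monoculture, 1.40, was 1.29 under total counts and 0.76 with the GC correction. The causes were not tested beyond the construction of each alternative.

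Scaling moved the balance of all genes most where the tumor was compared. Of genes past 2-fold, the share that was higher in tumor to 2D monoculture was 44.8%, and 59.9% under total counts, 60.5% under upper quartiles and 72.0% with the GC correction. It was 49.2% in spheroid to tumor, and 36.7% under total counts. It was 47.3% in 2D co-culture to tumor, 32.6% under total counts and 31.9% with the GC correction. In 2D co-culture to 2D monoculture it was 28.5%, and 39.0% under upper quartiles. Total counts moved the median log2 ratio of all genes from -0.14 to 0.08 in tumor to 2D monoculture, from 0.08 to -0.25 in spheroid to tumor and from 0.11 to -0.14 in 2D co-culture to tumor. The median of the 22 other transporters in tumor to 2D monoculture was -0.19, and turned positive, at 0.15, with the GC correction. Read depth limited no member.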

Other observations

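Among genes of alanine, aspartate and glutamine metabolism, the tumor was lowest for Got1 and Gpt2 but not for Glul. Got1, the cytosolic aspartate aminotransferase, was at 492 CPM for the 2D monoculture, 381 for the 2D co-culture, 539 for the spheroid and 165 for the tumor. Gpt2, the mitochondrial alanine aminotransferase, was at 34.1 CPM, 46.7 CPM, 87.4 CPM and 23.2 CPM in the same order. Glul, which makes glutamine, had a different order, with 98.5 CPM for the 2D monoculture, 157 for the 2D co-culture, 162 for the spheroid and 169.6 for the tumor. Nupr1, a stress-induced chromatin protein gene, was at 31.1 CPM, 36.6 CPM, 153 CPM and 31.7 CPM, so that the spheroid stood apart from the other 3 libraries.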
